A study of Rattus norvegicus with 18 samples.

Results

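The interleukin-1 (IL-1) family and the inflammasome were followed through 10 genes, chosen by symbol: the cytokine genes Il1a, Il1b, Il18 and Il33, the receptor antagonist gene Il1rn, the receptor genes Il1r1 and Il1r2, and the inflammasome genes Nlrp3, Pycard and Casp1. All 10 symbols were found among the 17307 symbols of the astrocyte count tables and the 17327 of the microglia tables. RNA was sequenced from wild-type primary rat astrocytes and microglia in 6 groups of 3 libraries, 18 in all: each cell type was left untreated (control), or was exposed for 24 h to fibrils of the 42-residue amyloid-β peptide (Aβ42) or to fibrils of the 40-residue peptide (Aβ40). Both cell types came from mixed glial flasks of the cortex of newborn Sprague–Dawley pups. Microglia were shaken off and replated, and astrocytes were the layer left behind, replated after further shaking. All groups, controls included, were kept in serum-free medium before the treatment. The labels do not state whether the 3 libraries of a group came from separate pups or cultures, so the p-values measure the spread between these libraries, which may be technical.

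IL-1α, IL-1β, IL-18 and IL-33 are cytokines of one family. IL-1α and IL-1β both bind the receptor encoded by Il1r1 and signal through MyD88 and IRAK kinases, while the antagonist encoded by Il1rn occupies that receptor without signalling and the receptor encoded by Il1r2 is a decoy. IL-1β and IL-18 are made as inactive precursors that caspase-1 cleaves in the inflammasome, a complex in which the sensor NLRP3 is joined to caspase-1 by the adaptor ASC, the product of Pycard. In brain, microglia are known as a main source of IL-1, and fibrillar Aβ is known to engage the NLRP3 inflammasome in these cells. RNA levels do not show how much cytokine was cleaved or released.

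The counts on genes per library ranged from 3674043 to 19013919 in astrocytes and from 2271834 to 22274367 in microglia. The detection limit was set at 3 counts, which corresponded to 0.160 to 0.835 CPM in astrocyte libraries and to 0.130 to 1.38 CPM in microglia libraries (CPM, counts scaled by TMM to a common library total within a cell type). Microglia Aβ42 replicate 1 stood apart: its log2 CPM over all genes correlated at 0.973 to 0.981 with the Aβ40 microglia libraries and at 0.961 with the other libraries of its own group. The summed level of 12 microglial markers was 8758 to 10303 CPM in control microglia, 2497 to 3722 CPM with Aβ42 and 3338 to 3932 CPM with Aβ40. In astrocyte libraries the same sum was 434 to 519 CPM in controls, 93.0 to 116 CPM with Aβ42 and 59.9 to 72.3 CPM with Aβ40. The sum of 10 astrocyte markers was 8962 to 10885 CPM in control astrocytes, 5761 to 5997 CPM with Aβ42, 6396 to 6690 CPM with Aβ40 and 239 to 282 CPM in the microglia libraries. Markers of the oligodendrocyte lineage summed to 1725 to 2573 CPM in control astrocytes, 1272 to 1372 CPM with Aβ42 and 1346 to 1366 CPM with Aβ40. In microglia libraries they summed to 1963 to 2167, 2180 to 2833 and 2206 to 2666 CPM in the same order. Endothelial markers summed to 3.02 to 5.74, 1.44 to 2.33 and 1.20 to 1.93 CPM in astrocytes. In microglia they summed to 9.27 to 10.8, 6.11 to 14.4 and 15.2 to 23.9 CPM. T cell markers summed to at most 0.133 CPM in astrocyte and 0.919 CPM in microglia libraries. Fibroblast, neutrophil and neuronal markers moved with the treatment too. In microglia libraries the fibroblast markers summed to 41.9 to 51.4 CPM in controls, 131 to 151 CPM with Aβ42 and 117 to 120 CPM with Aβ40, the neutrophil markers to 0 to 0.193, 4.0 to 13.9 and 6.71 to 12.1 CPM, and the neuronal markers to 151 to 168, 204 to 226 and 195 to 213 CPM. In astrocyte libraries the fibroblast markers summed to 84.5 to 110 CPM in controls and 32.8 to 62.3 CPM with fibrils, the neuronal markers to 38.8 to 61.2 and 23.2 to 33.2 CPM, and the neutrophil markers to at most 1.92 CPM. Their part in the values of the 10 genes was not tested.

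In untreated cells, 8 of the 10 genes were higher in microglia than in astrocytes and the receptor genes Il1r1 and Il1r2 were lower. In the fit of all 18 libraries, 34.2% of the 11581 tested genes were higher in untreated microglia and 34.5% were lower, so a call alone is common in this comparison, and cell type cannot be told apart from the isolation and plating that went with it. The difference was 8.42 ± 0.22 on the log2 scale (SE; adjusted p = 5.49e-16) for Il1b, 6.59 ± 0.46 for Il1rn and 6.28 ± 0.37 for Il1a. In control astrocytes Il1b had 1, 5 and 11 counts, Il1rn 2, 14 and 23, and Il1a 3, 5 and 6. The size of their differences and their shares of the microglia level thus rest on counts near the detection limit. Among the inflammasome genes the difference was 4.37 ± 0.16 for Nlrp3, 4.01 ± 0.18 for Casp1 and 2.64 ± 0.25 for Pycard. Il18 differed by 3.19 ± 0.28 and Il33 by 1.39 ± 0.16. Il1r1 was lower in microglia by -1.74 ± 0.22 (adjusted p = 1.12e-06). Il1r2 differed by -3.55 ± 0.62, and its counts in control microglia were 1, 0 and 1, all under the detection limit. Il1a, Il1b and Il1rn in control astrocytes and Il1r2 in control microglia had too few counts to enter the test there. They entered through other libraries, so their calls are not separate from the filter on low counts. With 10 counts asked in every library, these genes and Pycard were not tested. With both cell types on one scale, the mean level in control astrocytes was 0.280% of that in control microglia for Il1b and 1.06% for Il1rn. For the summed microglial markers the same share was 4.31%, and for Nlrp3 it was 4.93%. Whether the Nlrp3 counts of the control astrocyte libraries came from microglia in the cultures was not tested.

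**Figure D1:**
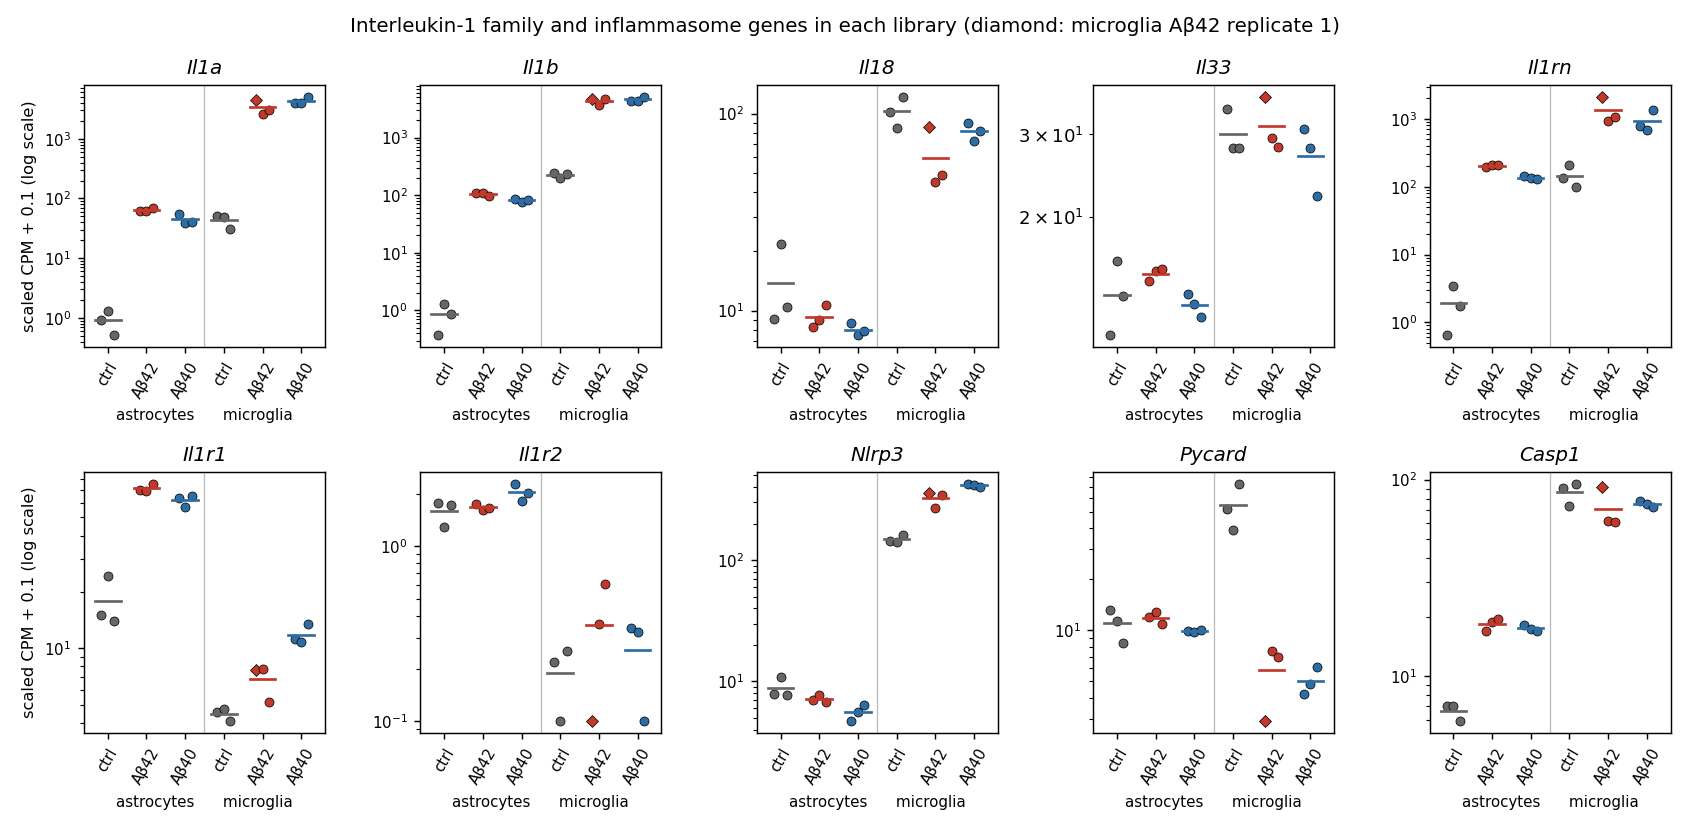
Level of each of the 10 genes in each of the 18 libraries, as scaled CPM plus 0.1 on a log axis that differs between panels; points are libraries, horizontal lines are group means (n = 3), and the diamond is microglia Aβ42 replicate 1. Astrocyte and microglia libraries were scaled separately; Il1a, Il1b and Il1rn were higher in every fibril-treated library than in every control library of the same cell type, and Pycard was lower in every fibril-treated microglia library.

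In astrocytes treated with either fibril, the RNA of Il1a, Il1b, Il1rn, Il1r1 and Casp1 was higher than in control astrocytes, and Nlrp3, Pycard, Il18 and Il33 were not higher. With Aβ42 fibrils 5 of the 10 genes were called higher and 0 lower by edgeR's quasi-likelihood test, where 16.5% of all 11690 tested genes were higher and 20.4% were lower. With Aβ40 fibrils 5 were higher and 1 was lower, where 14.9% of all tested genes were higher and 18.4% were lower. Il1a, Il1b and Il1rn, called higher with both fibrils, entered the test through the fibril-treated libraries, so their calls are not separate from the filter. With 10 counts asked in every library they were not tested.

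Il1b, the gene of IL-1β, stood at 0.278, 1.20 and 0.774 CPM in the control astrocyte libraries (1, 5 and 11 counts), at 110, 110 and 96.4 CPM with Aβ42, and at 86.9, 76.2 and 82.2 CPM with Aβ40. The groups did not overlap, and the control libraries lay around the detection limit. The log2 fold change was 7.07 ± 0.24 with Aβ42 (adjusted p = 7.13e-09) and 6.70 ± 0.24 with Aβ40 (adjusted p = 1.09e-08). Il1a, the gene of IL-1α, had 3, 5 and 6 counts in the control libraries (0.835, 1.20 and 0.422 CPM), against 60.6, 60.6 and 69.5 CPM with Aβ42 and 55.0, 38.4 and 41.0 CPM with Aβ40. Its log2 fold change was 6.56 ± 0.30 (adjusted p = 5.55e-08) and 6.05 ± 0.31 (adjusted p = 1.20e-07). Il1a, Il1b and Il1rn reached the level asked by the filter on low counts in 1, 1 and 2 of the 3 control astrocyte libraries, so they entered the test through the fibril-treated libraries, and the size of their fold changes rests on few control counts.

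Il1rn, the gene of the receptor antagonist, moved with the cytokine genes that its product opposes. It had 2, 14 and 23 counts in control astrocytes (0.557, 3.35 and 1.62 CPM), and reached 193, 206 and 209 CPM with Aβ42 and 142, 136 and 132 CPM with Aβ40. All 6 fibril-treated libraries lay above all controls, and those with Aβ40 lay below those with Aβ42. The log2 fold change was 6.80 ± 0.29 (adjusted p = 3.07e-08) with Aβ42 and 6.23 ± 0.29 (adjusted p = 6.20e-08) with Aβ40. Il1r1, the signalling receptor, went from 15.0, 24.2 and 13.9 CPM in controls to 70.1, 69.4 and 75.7 CPM with Aβ42 and to 63.1, 57.0 and 64.7 CPM with Aβ40. This was a log2 fold change of 2.04 ± 0.20 (adjusted p = 1.26e-05) and 1.82 ± 0.20 (adjusted p = 3.19e-05), with no overlap between fibril-treated and control libraries. Il1r2, the decoy receptor, was low throughout, at 1.20 to 1.67 CPM in controls, 1.52 to 1.65 CPM with Aβ42 and 1.71 to 2.18 CPM with Aβ40. It was not called with either fibril: its log2 fold change was 0.05 ± 0.26 with Aβ42, which became -0.01 when the libraries were scaled by their totals, and 0.32 ± 0.25 with Aβ40.

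Of Nlrp3, Pycard and Casp1, the gene of caspase-1, only Casp1 rose in astrocytes. Its level was 6.96, 6.94 and 5.77 CPM in controls, 16.8, 18.8 and 19.5 CPM with Aβ42 and 18.2, 17.3 and 16.9 CPM with Aβ40. The log2 fold change was 1.52 ± 0.16 (adjusted p = 2.19e-05) with Aβ42 and 1.44 ± 0.16 (adjusted p = 3.31e-05) with Aβ40. The sensor Nlrp3 stood at 7.79, 10.8 and 7.67 CPM in controls, at 6.87, 7.58 and 6.61 CPM with Aβ42 and at 4.57, 5.51 and 6.24 CPM with Aβ40. It was called lower with Aβ40 fibrils only, by -0.65 ± 0.20 (adjusted p = 0.0258). With Aβ42 its difference was -0.29 ± 0.20 (adjusted p = 0.277), and Nlrp3 was not called between the fibrils (adjusted p = 0.943). The Aβ40 call was lost without control replicate 2 (adjusted p = 0.0523), without Aβ40 replicate 1 (0.0892), without Aβ40 replicate 2 (0.0678) and in a fit restricted to the compared groups (0.0638). The adaptor Pycard was at 8.30 to 13.1 CPM in controls, 10.8 to 12.6 CPM with Aβ42 and 9.63 to 9.96 CPM with Aβ40, with log2 fold changes of 0.17 ± 0.18 and -0.10 ± 0.18 that were not called.

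The remaining cytokine genes were not called in astrocytes. Il18 was at 8.91, 21.8 and 10.3 CPM in controls, where replicate 2 was above the other libraries, at 8.10, 8.90 and 10.6 CPM with Aβ42 and at 8.52, 7.44 and 7.77 CPM with Aβ40. Its log2 fold change was -0.55 ± 0.29 (adjusted p = 0.165) with Aβ42 and -0.76 ± 0.29 (adjusted p = 0.0640) with Aβ40. Leaving out control replicate 1 or 3 brought the Aβ40 comparison of Il18 to adjusted p = 0.0377 and 0.0331, DESeq2 gave adjusted p = 0.0357, and without control replicate 2 the difference was -0.32. Il33, the gene of an alarmin held in nuclei, had a narrow range, from 11.1 to 16.0 CPM in controls, 14.5 to 15.4 CPM with Aβ42 and 12.2 to 13.6 CPM with Aβ40. The intervals of its log2 fold change ran from -0.20 to 0.49 with Aβ42 and from -0.42 to 0.27 with Aβ40.

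Microglial RNA in the astrocyte libraries was set beside these values. With Aβ42, 0 of the 12 microglial markers were called higher in astrocyte libraries and 10 lower, and with Aβ40 0 were higher and 12 lower. Cx3cr1, a receptor that defines resting microglia, had 90 to 267 counts in control astrocyte libraries and 0 or 1 in the fibril-treated ones. This was the largest fall among the 12, at -9.26 (Aβ42) and -8.80 (Aβ40) on the log2 scale. Cd68 (-0.52) and Ctss (-0.20) were not called for Aβ42, and stood at -1.46 and -0.68 for Aβ40. Between untreated cells, microglia minus astrocytes, Cx3cr1 differed by only 0.78, against 5.43 for Cd68, 4.58 for Ctss and 0.62 for Tmem119. In bulk RNA, fewer microglia and less marker RNA per microglial cell cannot be told apart. The summed level of the 12 markers was lower in the microglia libraries with fibrils too. There, 9 of the 12 were called lower and 1 higher with Aβ42, and 11 lower and 1 higher with Aβ40, and the higher one was the integrin gene Itgam. The number of Il1b counts per count on the microglial markers was 1.02 ± 0.068 (SD, n = 3) in astrocytes with Aβ42 and 1.24 ± 0.20 with Aβ40, against 1.44 ± 0.17 and 1.30 ± 0.014 in the microglia libraries. For Il1rn the same ratio was 1.98 ± 0.30 and 2.06 ± 0.27 in astrocytes, against 0.433 ± 0.12 and 0.260 ± 0.072 in microglia. Il1a per marker count was 0.622 ± 0.12 and 0.683 ± 0.21 in astrocytes, against 1.09 ± 0.080 and 1.22 ± 0.056 in microglia. Nlrp3 per marker count was 0.0682 ± 0.0080 and 0.0814 ± 0.0088 in astrocytes, against 0.107 ± 0.0098 and 0.118 ± 0.015 in microglia. In controls the Nlrp3 ratio was 0.0185 ± 0.0055 in astrocytes and 0.0159 ± 0.00023 in microglia. With fibrils it was thus higher in both cell types, where the summed markers were lower. Casp1 per marker count was 0.180 ± 0.032 and 0.263 ± 0.035 in astrocytes, against 0.0232 ± 0.0023 and 0.0214 ± 0.0026 in microglia. Expressed on one scale, fibril-treated astrocytes held 2.05% (Aβ42) and 1.51% (Aβ40) of the Il1b level of microglia, beside 2.87% and 1.60% for the summed markers, 12.6% and 12.4% for Il1rn, and 897% and 447% for Il1r1. Il18 held 13.1% and 8.30% on this scale, and Il33 40.9% and 40.8%. Pycard per marker count was 0.114 ± 0.011 and 0.148 ± 0.015 in astrocytes, against 0.0020 ± 0.0011 and 0.0014 ± 0.00015 in microglia. Beside the summed markers, the astrocyte values of Il1a and Nlrp3 were thus below those of microglia with both fibrils. Those of Il1rn, Casp1, Il1r1, Pycard, Il18 and Il33 were above, and Il1r2 was too low in microglia to be placed. For Il1b the ratio was below that of microglia with Aβ42, with no overlap (0.944 to 1.08 against 1.25 to 1.58), and overlapped with Aβ40. The single markers did not respond alike in the cell types. With each fibril, the log2 response, microglia minus astrocytes, was called above 0 for 7 of the 12 markers and below 0 for 2. Which of these genes lie above or below the microglia values may therefore depend on which markers are summed. The part of residual microglia in the astrocyte values was not tested.

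In microglia, both fibrils were accompanied by higher Il1a, Il1b, Il1rn, Nlrp3 and Il1r1 RNA and by lower Pycard RNA, and Casp1 and Il33 were not called. Il1r2 did not pass the filter on low counts and was not tested: it had 0 or 1 counts in 7 of the 9 libraries and 6 and 9 counts in the other two, Aβ42 replicates 2 and 3. With Aβ42, 5 of the 9 tested genes were called higher and 2 lower, where 27.1% of all 10837 tested genes were higher and 26.6% were lower. With Aβ40, 5 were higher and 1 was lower, where 19.6% of all tested genes were higher and 21.4% were lower.

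Il1b was present in control microglia at 243, 199 and 233 CPM and reached 4648, 3725 and 4656 CPM with Aβ42 and 4391, 4310 and 5110 CPM with Aβ40. The log2 fold change was 4.27 ± 0.14 (adjusted p = 7.00e-10) and 4.35 ± 0.14 (adjusted p = 8.70e-10). Il1a started lower, at 51.4, 48.1 and 30.4 CPM, and reached 4383, 2618 and 3040 CPM with Aβ42 and 4004, 3932 and 5042 CPM with Aβ40. Its log2 fold change was 6.27 ± 0.27 (adjusted p = 2.93e-09) and 6.64 ± 0.27 (adjusted p = 2.90e-09). Neither cytokine gene had overlapping control and fibril-treated libraries. Il1rn was the more variable: 134, 207 and 97.3 CPM in controls, 2116, 936 and 1049 CPM with Aβ42, and 779, 686 and 1345 CPM with Aβ40. The highest Aβ42 value was that of replicate 1, the library that stood apart. Its log2 fold change was 3.23 ± 0.38 (adjusted p = 1.85e-05) with Aβ42 and 2.68 ± 0.37 (adjusted p = 9.33e-05) with Aβ40, and it was 2.77 with Aβ42 without replicate 1.

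Nlrp3, the sensor, was at 144, 142 and 162 CPM in control microglia, 359, 268 and 342 CPM with Aβ42 and 427, 416 and 397 CPM with Aβ40. The log2 fold change was 1.11 ± 0.12 (adjusted p = 9.93e-06) and 1.47 ± 0.12 (adjusted p = 1.14e-06). Pycard, the adaptor, went the other way, from 51.5, 38.8 and 73.2 CPM (437, 201 and 480 counts) in controls to 2.80, 7.41 and 6.90 CPM with Aβ42 (7, 171 and 121 counts) and 4.10, 4.70 and 5.98 CPM with Aβ40 (17, 21 and 13 counts). All fibril-treated libraries lay far below all controls, and the change of -3.05 ± 0.26 with Aβ42 (adjusted p = 1.19e-06) and -3.52 ± 0.32 with Aβ40 (adjusted p = 2.40e-06) left 0.121 and 0.0873 of the control level. Casp1 was at 90.0, 73.2 and 95.3 CPM in controls, 91.6, 61.2 and 60.6 CPM with Aβ42 and 77.7, 74.9 and 72.6 CPM with Aβ40. Its differences of -0.32 ± 0.16 (adjusted p = 0.111) and -0.20 ± 0.16 (adjusted p = 0.358) were not called. Without Aβ42 replicate 1, the library in which Casp1 was as high as in controls, the Aβ42 difference was -0.51 (adjusted p = 0.000200).

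Il18, whose product is cleaved by caspase-1 as IL-1β is, did not follow Il1b. Its level was 101, 84.8 and 122 CPM in control microglia, 85.2, 45.0 and 48.9 CPM with Aβ42 and 89.5, 72.5 and 81.4 CPM with Aβ40. It was called lower with Aβ42, by -0.85 ± 0.21 (adjusted p = 0.00557), and with Aβ40 the difference was -0.34 ± 0.22 (adjusted p = 0.232), which was called in the restricted fit (adjusted p = 0.0308). Il33 was at 27.9 to 33.9 CPM in controls, 28.1 to 36.0 CPM with Aβ42 and 22.1 to 30.6 CPM with Aβ40, with differences of 0.02 ± 0.15 and -0.14 ± 0.16. Il1r1 was low in microglia, at 4.48, 4.64 and 3.97 CPM (38, 24 and 26 counts) in controls, 7.60, 7.67 and 5.07 CPM with Aβ42 and 11.1, 10.7 and 13.3 CPM with Aβ40. It was called higher with Aβ40, by 1.40 ± 0.23 (adjusted p = 0.000393). With Aβ42 the difference was 0.60 ± 0.22 (adjusted p = 0.0359), and this call was lost by DESeq2 (adjusted p = 0.0605), in the restricted fit (0.0567) and without any one of control replicates 1, 2 and 3 (0.0794, 0.0598 and 0.106) or Aβ42 replicate 2 (0.223).

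The start regions of Il1b, which rose in microglia, and of Pycard, which fell, are shown because the RNAs of these partners moved in opposite directions. They are the 250 bases before the RefSeq gene start on the rat assembly GRCr8, written 5′ to 3′ along the transcribed strand, which is the minus strand for both. The assembly of the count tables was rn5, and no counts were read from these coordinates. The Il1b window is chr3:137036582-137036831 and the Pycard window is chr1:192033420-192033669. Capitals mark matches on either strand to the motifs searched: TTNCNNAA for C/EBP factors, GAGGAA for PU.1, TGANTCA for AP-1, and the κB and ISRE (interferon-stimulated response element) motifs.
Il1b: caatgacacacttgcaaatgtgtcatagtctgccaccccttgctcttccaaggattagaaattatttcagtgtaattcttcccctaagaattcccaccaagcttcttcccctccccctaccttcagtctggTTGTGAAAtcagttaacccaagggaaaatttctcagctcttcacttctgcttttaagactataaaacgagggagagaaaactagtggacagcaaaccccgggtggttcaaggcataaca
Pycard: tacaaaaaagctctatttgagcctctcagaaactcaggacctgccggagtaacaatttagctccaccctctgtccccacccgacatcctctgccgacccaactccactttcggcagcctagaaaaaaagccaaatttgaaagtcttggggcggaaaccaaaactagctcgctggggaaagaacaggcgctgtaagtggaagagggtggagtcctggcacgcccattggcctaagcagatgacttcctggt
The Il1b window held 1 C/EBP match, TTGTGAAA, which began 119 bases before the start, and the Pycard window held no match to any of the 5 motifs. A window was found for 9 of the 10 genes, and Il1r2 was not matched. Il33 had more than 1 window, and a gene was counted where any of its windows matched. The shares over all windows below are per window and not per gene. C/EBP matches were in the windows of 6 of these 9 genes, against 37.2% of all 33469 rat windows of this length. PU.1 matches were in those of 3 genes (23.3% of all windows), and the κB, AP-1 and ISRE motifs each in that of 1 gene (6.33%, 6.34% and 3.41%), which were Il1r1, Il1a and Casp1. In Il1a and Casp1 a PU.1 match lay inside the C/EBP match TTGAGGAA, so these are not separate. A match is a string of letters and not a measured binding site.

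**Figure D2:**
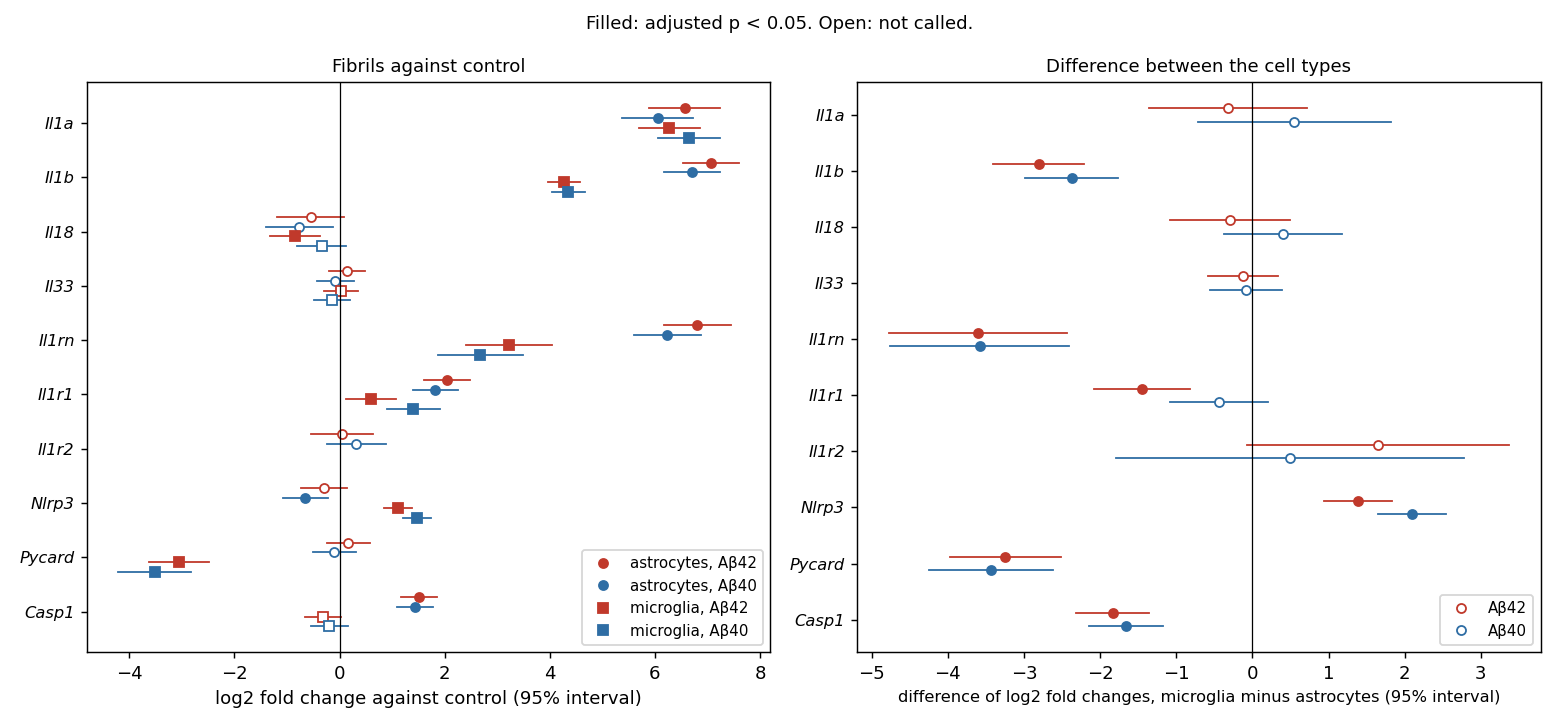
Left, log2 fold change of each gene against control with its 95% interval, for both fibrils in astrocytes (circles) and microglia (squares); right, difference of the log2 fold changes, microglia minus astrocytes. Filled points have an adjusted p under 0.05; Il1b and Il1rn lay further from control in astrocytes, Nlrp3 rose only where the points are squares, and Pycard fell only there, and the right panel gives the test of these differences.

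The responses of the cell types were compared by an interaction term in the fit of 18 libraries. With Aβ42, 6 of the 10 genes differed, where 37.3% of all 11581 tested genes did, and with Aβ40, 5 of the 10 differed, where 32.5% of all tested genes did. The log2 response of Nlrp3 was larger in microglia by 1.39 ± 0.21 with Aβ42 (adjusted p = 4.88e-05) and by 2.09 ± 0.21 with Aβ40 (adjusted p = 4.46e-07). For Pycard the difference was -3.24 ± 0.35 (adjusted p = 7.02e-07) and -3.43 ± 0.39 (adjusted p = 1.43e-06), and for Casp1 it was -1.84 ± 0.23 (adjusted p = 4.74e-06) and -1.66 ± 0.23 (adjusted p = 1.72e-05). The sensor, the adaptor and the protease of the same complex thus each differed between the cell types, the sensor in the direction of microglia and the other two in the direction of astrocytes.

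For the cytokine genes, the response of Il1b was smaller in microglia by -2.81 ± 0.29 with Aβ42 (adjusted p = 3.77e-07) and by -2.37 ± 0.29 with Aβ40 (adjusted p = 4.23e-06). Il1rn differed by -3.61 ± 0.56 (adjusted p = 5.20e-05) and by -3.58 ± 0.56 (adjusted p = 6.33e-05). In control astrocytes both genes were at 3.35 CPM or less, Il1b around the detection limit and Il1rn above it in the libraries of replicates 2 and 3, while both stood at no less than 97.3 CPM in control microglia, and in fibril-treated libraries both stayed lower in astrocytes. Il1a was not called, with intervals of the difference from -1.36 to 0.71 with Aβ42 and from -0.71 to 1.82 with Aβ40. Il1r1 responded less in microglia with Aβ42, by -1.45 ± 0.30 (adjusted p = 0.000831), and with Aβ40 the difference was -0.44 ± 0.31 (adjusted p = 0.300). Without astrocyte control replicate 2 the Aβ40 difference of Il1r1 was -0.73 (adjusted p = 0.0335). Il18, Il33 and Il1r2 were not called with either fibril.

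Ratios of counts within a library do not depend on its scaling, and they change between groups where the members of a pair moved unequally. In control astrocytes the Il1rn counts per Il1b count were 2.00, 2.80 and 2.09, in astrocytes with Aβ42 1.76, 1.88 and 2.17, and with Aβ40 1.64, 1.78 and 1.61. In microglia they were 0.550, 1.04 and 0.418 in controls, 0.455, 0.251 and 0.225 with Aβ42 and 0.178, 0.159 and 0.263 with Aβ40. The control astrocyte ratios rest on only 1, 5 and 11 Il1b counts. The antagonist thus had more counts than Il1b in every astrocyte library and in 1 of the 9 microglia libraries, and its group means against Il1b were lowest in fibril-treated microglia, where Aβ42 replicate 1 overlapped with the controls. In microglia the Il1a counts per Il1b count were 0.194 ± 0.058 (SD, n = 3) in controls, 0.766 ± 0.16 with Aβ42 and 0.937 ± 0.043 with Aβ40. Pycard counts per Nlrp3 count were 0.362 ± 0.089, 0.0185 ± 0.0100 and 0.0120 ± 0.0028 in the same groups of microglia, with no overlap between controls and fibrils, and in astrocytes they were 1.27 ± 0.36, 1.68 ± 0.048 and 1.83 ± 0.28. With 3 libraries a group an exact two-sided permutation test cannot give a p below 0.1, and the ratios were not tested. Since gene lengths differ, a ratio of counts is not a ratio of molecules, and only its change between groups can be read.

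**Figure D3:**
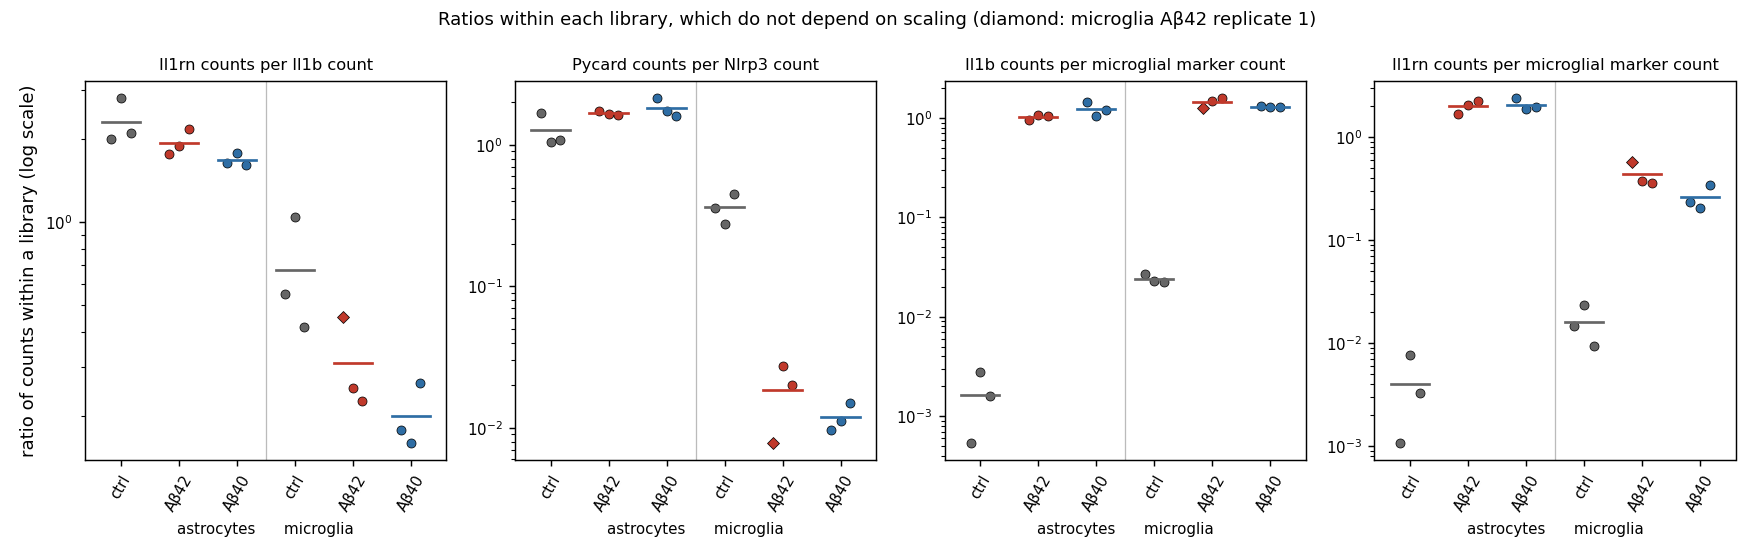
Ratios of counts within each library on log axes, one panel per ratio; points are libraries, lines are group means (n = 3), and the diamond is microglia Aβ42 replicate 1. Il1rn per Il1b was between 1.61 and 2.80 in all astrocyte libraries and between 0.159 and 1.04 in microglia. In control astrocytes it rests on only 1, 5 and 11 Il1b counts. Pycard per Nlrp3 was between 0.0078 and 0.028 in fibril-treated microglia and above 0.27 in all other libraries. Il1b per microglial marker count was 0.944 to 1.45 in fibril-treated astrocytes and 1.25 to 1.58 in fibril-treated microglia. Il1rn per microglial marker count was higher in the fibril-treated astrocytes than in the fibril-treated microglia.

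The fibrils were also compared with each other. In astrocytes 0 of the 10 genes were called by edgeR, where 0.0855% of all tested genes were, while 3 had an unadjusted p under 0.05. These were Il1rn, Il1a and Il1b, all higher with Aβ42, by 0.57 ± 0.19 (adjusted p = 0.450), 0.51 ± 0.18 (adjusted p = 0.512) and 0.36 ± 0.15 (adjusted p = 0.664). The Il1rn libraries did not overlap between the fibrils (193 to 209 against 132 to 142 CPM), and Il1rn was called by DESeq2 (adjusted p = 0.00113) and in the fit of these groups alone (adjusted p = 0.00887). In microglia Il1r1 was the 1 gene called of 9, lower with Aβ42 by -0.80 ± 0.21 (adjusted p = 0.0279), where 20.3% of all tested genes were called. Nlrp3 was at -0.36 ± 0.12 (adjusted p = 0.0519), with no overlap between 268 to 359 CPM with Aβ42 and 397 to 427 CPM with Aβ40, and it was called by DESeq2 (adjusted p = 0.0401) and with library totals (adjusted p = 0.0382). Without microglia Aβ42 replicate 1, the library that resembled the Aβ40 group, 5 of 9 genes were called, all lower with Aβ42, and 53.8% of all tested genes were. They were Il1r1 by -0.83 ± 0.21, Il18 by -0.79 ± 0.13, Il1a by -0.61 ± 0.16, Nlrp3 by -0.44 ± 0.10 and Casp1 by -0.31 ± 0.10. Leaving out any other fibril-treated microglia library left 0 called. For Il1b the microglia interval ran from -0.36 to 0.19, and from -0.39 to 0.12 without that library.

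Other genes of IL-1 signalling and of inflammasomes were taken from 4 lists of 47 genes, of which 42 were in the tables. In astrocytes 31 were tested: 12 were higher and 6 lower with Aβ42, where 16.5% and 20.4% of all tested genes were, and 11 were higher and 7 lower with Aβ40, where 14.9% and 18.4% were. In microglia 30 were tested: 12 were higher and 10 lower with Aβ42 (27.1% and 26.6% of all tested genes), and 13 higher and 9 lower with Aβ40 (19.6% and 21.4%). The median log2 fold change of these genes was 0.33 and 0.25 in astrocytes (-0.0047 and 0.0017 over all tested genes) and 0.12 and 0.11 in microglia (0.0096 and 0.0054 over all tested genes). Il18bp, the gene of the IL-18 binding protein that neutralizes IL-18, went from 5.74 to 14.4 CPM in control astrocytes to 97.2 to 108 CPM with Aβ42 and 82.8 to 96.3 CPM with Aβ40. This was a log2 fold change of 3.25 ± 0.25 (adjusted p = 2.20e-06) and 3.06 ± 0.25 (adjusted p = 3.88e-06), and in microglia it was 2.00 ± 0.15 and 1.82 ± 0.16. Irak3, an IRAK without kinase activity that dampens the receptor signal, rose by 2.21 ± 0.16 and 1.88 ± 0.16 in astrocytes and by 2.38 ± 0.14 and 2.64 ± 0.14 in microglia. Irak2, an IRAK that carries the signal onward, rose by 1.46 ± 0.14 and 1.26 ± 0.14 in astrocytes and by 2.36 ± 0.11 and 2.38 ± 0.11 in microglia.

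Of the receptor genes, Il1rap, the co-receptor without which Il1r1 does not signal, rose in microglia by 1.26 ± 0.11 (adjusted p = 1.09e-06) and 1.55 ± 0.11 (adjusted p = 2.35e-07). In astrocytes its differences were 0.16 ± 0.16 and 0.10 ± 0.16, and the interaction was 1.09 ± 0.19 with Aβ42 (adjusted p = 0.000162) and 1.44 ± 0.19 with Aβ40 (adjusted p = 1.01e-05). Il1rl2, the IL-36 receptor, rose in astrocytes by 1.93 ± 0.44 and 1.54 ± 0.44 from 1 to 9 counts a control library. All its control libraries lay under the level asked by the filter on low counts, so it entered the test through the fibril-treated libraries. It was at 0 to 6 counts in the microglia libraries, where it was not tested.

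Among the genes of inflammasome assembly, P2rx7, the ATP-gated channel whose opening is a classical trigger of NLRP3, was at 47.6, 50.2 and 44.7 CPM in control microglia, 8.0, 3.16 and 2.11 CPM with Aβ42 and 4.34, 5.59 and 6.89 CPM with Aβ40. It fell by 3.88 ± 0.28 on the log2 scale with Aβ42 (adjusted p = 3.19e-07) and by 3.13 ± 0.30 with Aβ40 (adjusted p = 4.79e-06), as Pycard did. In astrocytes P2rx7 was at 22.7 to 35.0 CPM in all libraries and was not called. Nlrc4, the sensor of another inflammasome, rose in microglia by 0.88 ± 0.13 and 1.35 ± 0.13. In astrocyte libraries it was lower by -1.35 ± 0.36 (adjusted p = 0.0134) and -1.61 ± 0.36 (adjusted p = 0.00519), from 2.78 to 6.46 CPM in controls to 0.909 to 1.58 CPM with fibrils. Its mean in controls was 4.04 CPM in astrocytes and 76.8 CPM in microglia, each scaled within its cell type. The summed microglial markers were lower in the same fibril-treated astrocyte libraries, and the part of residual microglia in the Nlrc4 values was not tested. Casp4, an inflammatory caspase of the noncanonical inflammasome, rose by 2.09 ± 0.15 and 2.12 ± 0.15 in astrocytes and by 0.59 ± 0.13 and 0.66 ± 0.14 in microglia, and the interaction was -1.51 ± 0.20 (adjusted p = 8.48e-06) and -1.47 ± 0.20 (adjusted p = 1.40e-05). Casp12 rose by 1.61 ± 0.31 and 1.89 ± 0.31 in astrocytes and by 2.53 ± 0.26 and 2.96 ± 0.29 in microglia, where its control level of 0.610 to 1.18 CPM was under the level asked by the filter in every library, so that there it too was tested through the fibril-treated libraries.

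**Figure D4:**
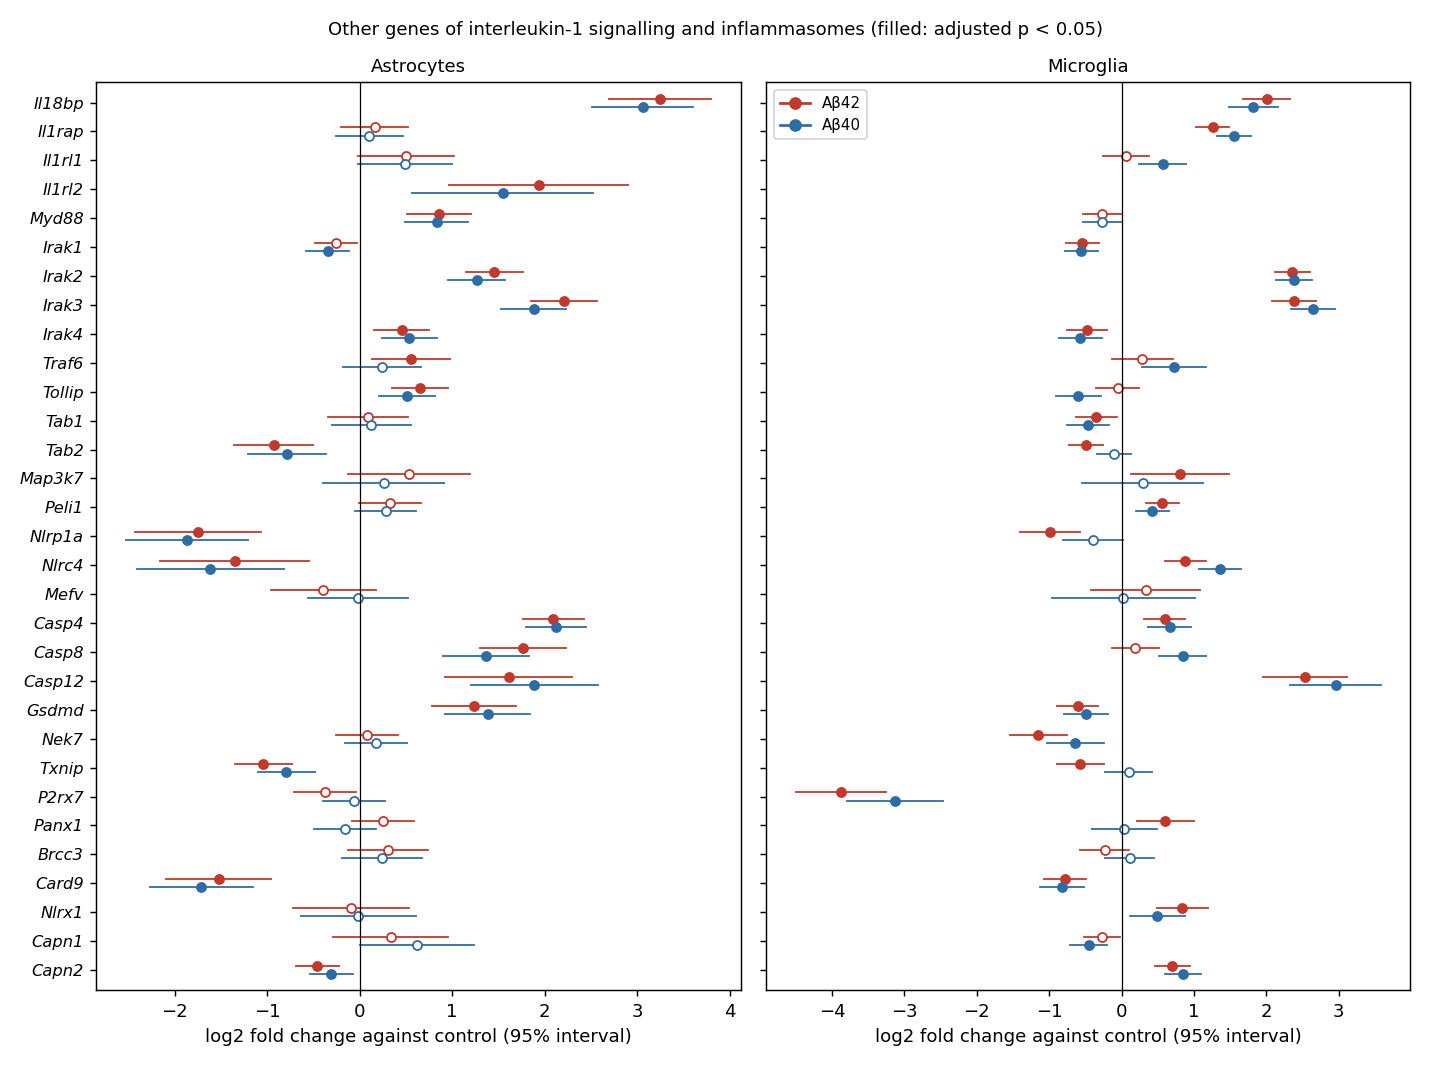
Log2 fold change against control with its 95% interval for the tested genes of the 4 lists, in astrocytes (left) and microglia (right), for Aβ42 (red) and Aβ40 (blue); filled points have an adjusted p under 0.05 and genes without a point were not tested in that cell type. Il18bp, Irak2, Irak3, Casp4 and Casp12 were higher in both cell types, P2rx7 was lower in microglia, and Nlrc4 was lower in astrocyte libraries and higher in microglia libraries. The part of residual microglia in the astrocyte values was not tested.

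The genes whose log2 CPM was most like that of Il1b over the 9 microglia libraries were PVR, S100a6 and Mmp9, with Pearson's r of 0.999, 0.999 and 0.998. Those most like Il33 over the 9 astrocyte libraries were Mark1, Man1a2 and Ak4, with r of 0.957, 0.934 and 0.933. The points of each r share the same 9 libraries in 3 treatment groups, so a gene that separates controls from fibrils as Il1b does has a high r, and no test was made.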

How the data were processed

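RNA was sequenced from primary rat astrocytes and microglia, 3 libraries in each of 6 groups. The authors prepared stranded poly(A) libraries, aligned the reads to rn5 with STAR, named Salmon for quantification and DESeq2 for gene counts (versions not given in the sources used here), and deposited 1 table of whole-number counts per gene for each library, not normalized and not pooled. Reads on no gene or on more than 1 were 26.0% to 34.2% of a library in astrocytes and 21.7% to 24.5% in microglia, and were left out.

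Counts were analysed in R 4.3.3 with edgeR 4.0.16. Within a cell type, genes were filtered by filterByExpr and scaled by TMM, the 9 libraries were fitted by glmQLFit without covariates, and each comparison was tested by glmQLFTest, with p-values adjusted by Benjamini-Hochberg over every tested gene, and called at an adjusted p under 0.05 at any fold. Differences between cell types were tested in a fit of all 18 libraries on symbols shared by both. Errors of fold changes are standard errors (log2 fold change over the root of F), and intervals are 95%. Fold changes are on the log2 scale of fitted counts. Intervals and the detection limit of 3 counts cover counting and library spread only. No libraries were duplicates (lowest chi-square per degree of freedom 1.76). Scripts were tested on simulated data.

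The members and the lists of pathway genes and cell type markers were chosen with earlier results of these data known. All members are named. Of each pathway list, the named genes have an adjusted p under 0.05 and a change of 2-fold or more in any comparison with control, at most 4, smallest p first. Alternatives were DESeq2 1.42.0 size factors, library totals, DESeq2's Wald test, no filter, 10 counts in every library, the replicate number as a block, the compared groups alone, and leaving out each replicate. Windows before gene starts came from RefSeq (GRCr8). Protein and cleavage measurements were not analysed here.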

Additional observations from a re-analysis of the deposited data

Results flagged for a closer look

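The response to the fibrils differed between the cell types, by an interaction term in edgeR's quasi-likelihood test, for 6 of the 10 genes with Aβ42 and 5 with Aβ40, where 37.3% and 32.5% of all tested genes differed. Values are log2 differences, microglia minus astrocytes, with 3 libraries in each of the groups compared. For Nlrp3 the difference was 1.39 with Aβ42 and 2.09 with Aβ40, and the gene was higher in all 6 fibril-treated microglia libraries than in the control microglia. For Pycard it was -3.24 and -3.43, and for Casp1 -1.84 and -1.66. Il1b differed by -2.81 and -2.37, and Il1rn by -3.61 and -3.58. Il1r1 differed by -1.45 with Aβ42. All 11 values kept their direction and their call under each alternative in which the gene was tested. With the filter of 10 counts in every library, Il1b, Il1rn and Pycard were not tested. The causes of these differences were not tested.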

How the results depend on the processing

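Of 1181 values of single genes under the alternatives, 1133 kept their direction and their call, 15 gained a call, 18 lost one and 15 reversed. The filter of 10 counts in every library gave 2 called genes in astrocytes with Aβ42, 3 with Aβ40, 3 and 2 in the differences between the cell types with Aβ42 and Aβ40, and 5 between untreated cells, since members with low counts in some library left the test. Between the fibrils in astrocytes, DESeq2 and the fit of these groups alone each called 1 gene. Between the fibrils in microglia, library totals, DESeq2 and the filter of 10 counts each called 2 genes, the fit of these groups alone and the replicate block 0, and leaving out 1 replicate 0 to 5. No reversed value was called. Il1r2 in astrocytes with Aβ42 was -0.011 with library totals. Leaving out 1 replicate gave -0.037 to 0.157 for Il1r2 and -0.041 to 0.328 for Pycard in astrocytes with Aβ42, -0.169 to 0.026 for Il33 and -0.310 to 0.054 for Pycard with Aβ40, -0.073 to 0.144 for Il33 in microglia with Aβ42, and -0.137 to 0.017 for Il1b between the fibrils in microglia. In the differences between the cell types it gave -0.679 to 0.333 for Il1a and -0.241 to 0.031 for Il33 with Aβ42, and -0.039 to 0.631 for Il18 and -0.191 to 0.046 for Il33 with Aβ40. The cause of these changes was not tested. Libraries of different groups that share a replicate number did not deviate together (correlations from -0.526 to 0.358 in astrocytes and from -0.194 to 0.217 in microglia), so the numbers do not pair them. With the replicate block, Il1r1 in microglia lost its call with Aβ42 (adjusted p = 0.0545) and between the fibrils (adjusted p = 0.0539), and no other call changed. For untreated microglia against untreated astrocytes no paired analysis was made. The labels do not state whether libraries of the same number share a preparation, and pairing across cell types was not examined. Low control counts of Il1a, Il1b and Il1rn in astrocytes and of Il1r2 in microglia limit the precision of their folds.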
